A study of Homo sapiens with 12 samples.

Results

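Microexons are internal exons so short that they add only a few codons, or shift the reading frame, when they are spliced in. Here a skipped microexon is an exon skip event, in the deposited table of such events, whose skipped exon is at most 30 nt long. The table holds 24609 exon skips, of which 569 have an exon of that length. A mean of at least 20 reads per library was asked for, counted as the mean of the 2 inclusion junctions plus the skip junction. That left 482 microexon events, which are 2.24% of the 21477 exon skips that pass the same minimum, and 87 were not analysed further. The 482 events hold 426 distinct exons in 369 genes, so some share an exon or a junction and are not independent. Length and depth alone chose them, and neither uses the group labels, though earlier results of these data were known when the set was chosen.

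The cells are AsPC-1, an established human pancreatic cancer line, and RNA was poly(A) selected. The 4 groups of 3 libraries (A, B and C) are siControl at 21% O2 (normoxia), siARNT at 21% O2, siControl at 1% O2 for 24 h (hypoxia) and siARNT at 1% O2 for 24 h. All groups were transfected with an siRNA, scrambled or against ARNT, and were harvested 48 h after transfection. The wells were divided between the oxygen levels on the day after transfection, so a normoxic and a hypoxic library may come from the same well. Since all libraries come from 1 cell line, p-values measure the spread between wells of this line. ARNT is the shared partner of the HIF alpha subunits, which carry the transcriptional response to low oxygen, and of the aryl hydrocarbon receptor.

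Microexons are best known from neurons, where the factors SRRM4 and SRRM3 act at a motif before the short exon and raise its inclusion. A short exon leaves little room for splicing factors to bind on both sides, and many depend on enhancers in the flanking introns. Those whose length is a multiple of 3 keep the reading frame and change a protein by a few residues, often in proteins of membrane traffic and the cytoskeleton. PTBP1, RBFOX2, QKI and ESRP1 are RNA-binding proteins known to act on such exons outside neurons.

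Of the 482 events, 297 (61.6%) matched an exon of the same gene in GENCODE 29 by strand, exon length and the length of both flanking introns, against 74.3% of the longer events. The sequences and positions given here are those of the matched exon in GRCh38. The position of an event in the deposited table equalled that of an annotated exon for only 1 member, so the table's own coordinates are not printed. The following 8 exons are shown because the siARNT comparisons below turn on them or, for DNM1, on its relative DNM2; they were chosen after their values were seen. The microexon is in capitals and up to 12 coding bases of the neighbouring exons, as joined in the mRNA, are in lower case.
ANO1: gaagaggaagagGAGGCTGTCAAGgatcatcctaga
PAPSS2: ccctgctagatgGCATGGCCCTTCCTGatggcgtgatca
DNM2: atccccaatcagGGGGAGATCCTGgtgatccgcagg
DNM1: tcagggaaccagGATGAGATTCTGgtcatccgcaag
AP2M1: atcaagagtcagCATCAGacaaaagaagag
VPS29: atgGCTGGGCACAGAttggtgttggta
MON2: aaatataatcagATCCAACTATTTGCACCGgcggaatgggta
ACOT9: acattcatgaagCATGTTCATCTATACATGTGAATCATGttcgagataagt

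All 8 are coding exons with a length that is a multiple of 3. The 12 nt exon of ANO1, a calcium-activated chloride channel, lies at chr11:70152450-70152461 on the plus strand and is exon 13 of 26. The 15 nt exon of PAPSS2, an enzyme that makes the sulfate donor PAPS, lies at chr10:87721756-87721770 on the plus strand (exon 8 of 13). The dynamins are GTPases that pinch off vesicles, and their 12 nt exons lie at chr19:10808569-10808580 for DNM2 (plus strand, exon 14 of 21) and chr9:128239985-128239996 for DNM1 (plus strand, exon 14 of 22). AP2M1 encodes a subunit of the clathrin adaptor AP-2, and its 6 nt exon lies at chr3:184180645-184180650 on the plus strand (exon 5 of 12). In VPS29, a subunit of the retromer, the 12 nt exon follows directly on the start codon and lies at chr12:110499535-110499546 on the minus strand (exon 2 of 5). The 18 nt exon of MON2, which acts in traffic between the Golgi and endosomes, lies at chr12:62566014-62566031 on the plus strand (exon 28 of 35). The 27 nt exon of ACOT9, a mitochondrial acyl-CoA thioesterase, lies at chrX:23734341-23734367 on the minus strand (exon 3 of 16).

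The libraries held 38.53 to 84.34 M (megareads) counted in genes, and 22.71 to 25.2% of reads were in no gene. ARNT was at 62.4 ± 1.53 CPM (read counts scaled to library size, SD, n = 3) in normoxic siControl and 13.4 ± 0.561 in normoxic siARNT. In hypoxia it was at 69.1 ± 3.81 and 15.3 ± 1.04 CPM. The summed level of 7 pancreatic ductal markers ran from 3710 to 4230 CPM in normoxic siControl, 5220 to 8090 in normoxic siARNT, 3780 to 4800 in hypoxic siControl and 4110 to 5700 in hypoxic siARNT, and the ductal keratin KRT7 alone was low (1.36 ± 0.314 CPM in normoxic siControl). Whether that higher level in normoxic siARNT has a part in the splicing differences was not tested. Lists of neuronal, endocrine, fibroblast and immune markers summed to between 0.106 and 1.2 CPM in every library, and the neuronal gene SNAP25 had 0 counts. In these bulk libraries a change in the share of cells that use an exon cannot be told apart from a change within each cell.

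Exon length was not spread evenly. Of the 482 microexon events 264 (54.8%) had a length that is a multiple of 3, against 42.5% of the 20995 longer events that passed the same read minimum. The inclusion level PSI (percent spliced in, here a fraction from 0 to 1) is the mean of both inclusion junctions divided by that mean plus the skip junction. The median over members of the mean PSI in 12 libraries was 0.818 (quartiles 0.209 and 0.964), and for longer exons it was 0.949 (quartiles 0.684 and 0.983). Between the poles of almost always skipped and almost always included lay 190 members (39.4%) with a mean PSI from 0.1 to 0.9, against 25% of longer exons. A further 89 members were under 0.1 and 203 were at 0.9 or more. The shortest exons had the lowest levels, with a median of 0.477 over 57 events of 1 to 9 nt, 0.751 over 71 events of 10 to 15 nt, 0.75 over 75 events of 16 to 21 nt, 0.864 over 180 events of 22 to 27 nt and 0.912 over 99 events of 28 to 30 nt. No test was made between lengths, since events share genes and junctions.

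**Figure D1:**
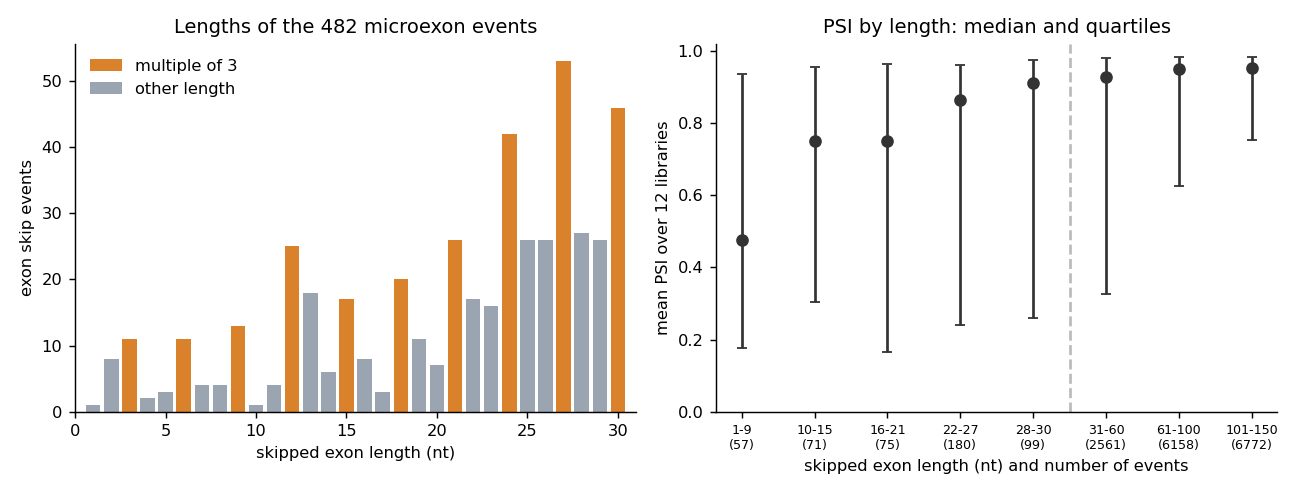
Left, the number of microexon events (vertical axis) at each exon length in nt (horizontal axis), with lengths that are multiples of 3 in orange; the tallest bars are at 24, 27 and 30 nt. Right, the median (point) and quartiles (bars) of mean PSI over 12 libraries for exons of increasing length, with the number of events under each range; the median goes from 0.477 at 1 to 9 nt to 0.954 at 101 to 150 nt, and the dashed line marks 30 nt.

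After counting each exon once, 278 matched microexons remained, of which 232 (83.5%) were coding in the transcript used, 11 lay in a 5′ UTR, 7 in a 3′ UTR, 12 spanned a coding end and 16 were in noncoding transcripts. The last base was G in 82% of them and in 81.2% of 14569 longer matched exons. The exon ended in AG in 53.6% and 58.9%. A purine made up a median of 57.4% of the bases of a microexon and 52.8% of a longer exon. The introns beside the 482 events were shorter, with medians of 1608.5 nt upstream and 1441.5 nt downstream, than the 2519 and 2285 nt beside longer exons.

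An exon that is truly spliced in has reads on both of its junctions, and many of the events did not. The weaker inclusion junction, summed over libraries, held at least 0.5 of the reads of the stronger one in 231 members (47.9%; 51.5% of longer events) and under 0.1 in 145 (30.1%; 24.6% of longer events). That ratio had a median of 0.717 in the 297 matched members and 0.0649 in the 185 without a match. In the 9 nt event of ANO1, for instance, 1 junction held 0 to 9 reads per library and the other 219 to 457, and the latter is the same junction as in the 12 nt event. Such events reach a high or middle PSI through 1 junction alone. With the weaker junction taken as the inclusion count, the median PSI of the 482 members was 0.342 in place of 0.818, so this choice moves the level of the whole set. Of the 231 members with balanced junctions, 152 (65.8%) had a length that is a multiple of 3, against 112 of the 251 others (44.6%). There were 91 events in 82 genes with balanced junctions and a mean PSI from 0.1 to 0.9. Among these 91 the share of multiples of 3 was 78%, against 52.1% of 2170 longer exons chosen in the same way, and 74 were annotated as coding.

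**Figure D2:**
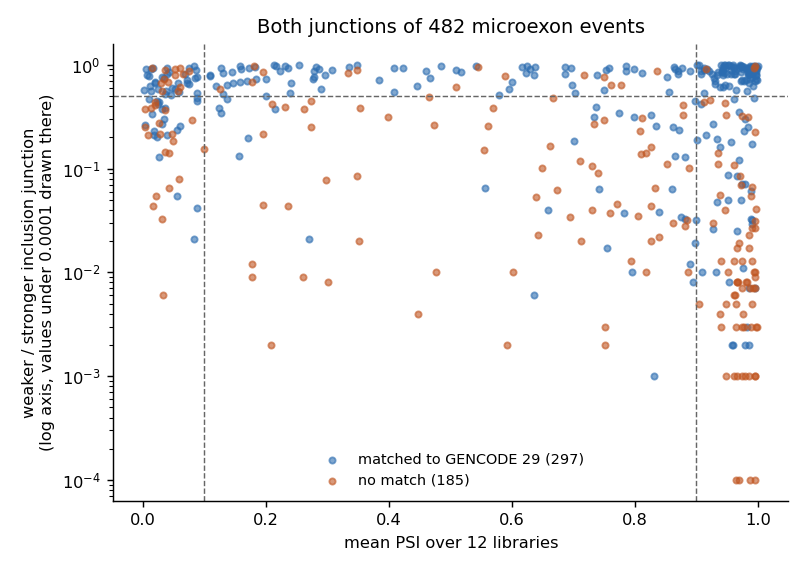
Each point is 1 of 482 microexon events, placed by mean PSI over 12 libraries (horizontal axis) and by the reads of its weaker inclusion junction divided by those of the stronger (vertical, log axis), in blue where it matched an annotated exon (297) and in orange where it did not (185). The box between the dashed lines at the upper middle holds the 91 events with a ratio of at least 0.5 and a PSI from 0.1 to 0.9.

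Some junctions were at 0 in some libraries and well read in others. A junction with 0 reads in at least 1 library and at least 100 in another was present in 50 members (10.4%), in 3.25% of longer events and in 4 of the 91 events with balanced junctions and middle PSI. For the 28 nt event of B2M, the light chain of MHC class I, the skip junction held 413, 259 and 315 reads in normoxic siControl and 517, 309 and 0 in normoxic siARNT. It held 0 in all 3 hypoxic siControl libraries and 0, 226 and 0 in hypoxic siARNT, where it was present in replicate B alone. The skip junction of the 21 nt event of PPIA (cyclophilin A) was at 0 in 8 libraries and at 543 to 1060 reads in the other 4. In B2M and PPIA replicates of 1 group were on both sides.

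Related genes often carry the same microexon, and its use differed between some of them. Among matched members, 7 pairs of genes had microexons of equal length whose bases, with 12 on either side, were at least 65% identical. The following 4 pairs are shown because their exons are nearly alike and their levels are or are not, with capitals as before.
CLASP1: cctcatagcaagAGAgttttcagtatg
CLASP2: cctcatggcaagAGAgtattcagcatg
DST: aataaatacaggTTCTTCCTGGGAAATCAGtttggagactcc
MACF1: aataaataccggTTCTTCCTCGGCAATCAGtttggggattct
PPP3CA: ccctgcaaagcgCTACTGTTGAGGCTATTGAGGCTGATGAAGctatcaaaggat
PPP3CB: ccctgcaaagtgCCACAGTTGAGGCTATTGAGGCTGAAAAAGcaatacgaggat
MXD1: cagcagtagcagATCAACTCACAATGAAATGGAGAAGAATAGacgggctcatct
MXI1: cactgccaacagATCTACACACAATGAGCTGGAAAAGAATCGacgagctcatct

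The CLASP proteins stabilise microtubule plus ends, and their 3 nt exon was included almost always in both genes, with a mean PSI of 0.987 in CLASP1 and 0.981 in CLASP2. The exons lie at chr2:121401868-121401870 and chr3:33563964-33563966, both on the minus strand. DST and MACF1 encode spectraplakins, which link actin to microtubules, and 16 of the 18 bases of their exons are the same (chr6:56468982-56468999, minus strand, and chr1:39465095-39465112, plus strand). In DST the PSI was between 0.978 and 1 in every library, whereas in MACF1 it was between 0.579 and 0.674. The ranges do not overlap, and in neither gene did any comparison between groups pass the test.

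The catalytic subunits of calcineurin, the calcium-dependent phosphatase, include PPP3CA and PPP3CB. Their 30 nt exons share 26 bases and lie at chr4:101029166-101029195 and chr10:73439872-73439901, both on the minus strand. The exon was nearly always left out in PPP3CA, with a PSI of 0.0148 to 0.0341 over 12 libraries, 0 to 3 reads on 1 junction and 2 to 13 on the other, beside 99 to 230 skip reads. In PPP3CB it was included in most transcripts, with a mean PSI of 0.746 ± 0.077 in normoxic siControl, 0.611 ± 0.046 in normoxic siARNT, 0.668 ± 0.092 in hypoxic siControl and 0.529 ± 0.043 in hypoxic siARNT (SD, n = 3). PPP3CC, a further gene of this family, had a 30 nt exon with a mean PSI of 0.158 at 30.3 reads per library. The MYC antagonists MXD1 (chr2:69921736-69921765) and MXI1 (chr10:110244828-110244857), both on the plus strand, used their 30 nt exon almost always, with mean PSI of 0.956 and 0.931. The cyclins CCNL1 and CCNL2 and the motor adaptors HOOK3 and HOOK2 made up 2 further pairs. In CCNL1, CCNL2 and HOOK2 the weaker junction held 0.466, 0.0101 and 0.474 of the reads of the stronger, under the 0.5 used here for balance. The event of PPP3CA was under it as well, at 0.13. The dynamins are described with the siARNT comparisons.

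**Figure D3:**
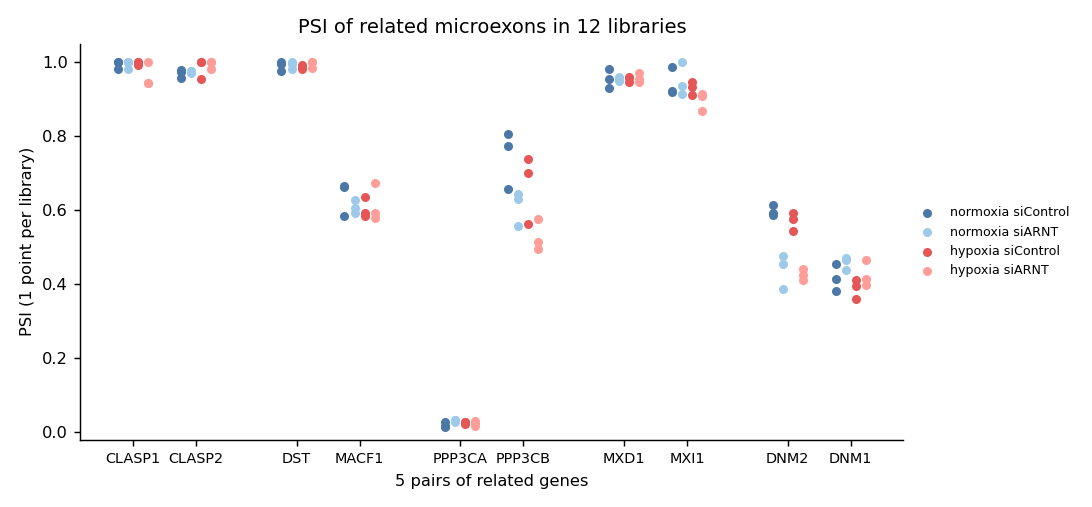
PSI (vertical axis) of the microexon in 5 pairs of related genes (horizontal axis), 1 point per library, coloured by group. CLASP1, CLASP2, DST, MXD1 and MXI1 sit near 1, PPP3CA sits near 0, and MACF1 (0.579 to 0.674), PPP3CB, DNM2 and DNM1 lie between.

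Exons of 3 nt, which add or remove a single codon, took every level. In CYTH1, an exchange factor for ARF GTPases, the 3 nt exon at chr17:78696007-78696009 (minus strand) had a PSI of 0.35, 0.302 and 0.396 in normoxic siControl and 0.275 to 0.411 in the other 9 libraries. Both of its junctions had like counts, 10 to 41 and 9 to 39 reads. In ASXL1, a chromatin regulator, the exon at chr20:32367727-32367729 (plus strand) had a PSI from 0.863 to 0.946 in all libraries. RWDD4 was higher still, at 0.961 to 1. These 2 exons are shown because they give the smallest insertion that can be seen on both junctions, at a low and at a high level.
CYTH1: tattgaaactcgGAGgtggcagggtaa
ASXL1: aaaggaaatgagAAGtgggacttcccc

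Very short skipped exons, 1 nt in GLMP and 2 nt in N4BP2L2, rested mostly on 1 junction. In GLMP that junction held 47 to 98 reads per library and the other 0 to 7. In N4BP2L2 the junctions held 51 to 109 and 2 to 16 reads. No annotated exon was matched to either.

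Of the 8 members with the most reads, all but the event of B2M described above were in genes of ribosomal proteins. The 22 nt exon of RPS24 lies in the 3′ UTR of the transcript used. It had a mean of 13360 reads per library and balanced junctions. Its PSI was 0.164, 0.165 and 0.165 in normoxic siControl and 0.146, 0.146 and 0.144 in normoxic siARNT. It was 0.171, 0.162 and 0.173 in hypoxic siControl and 0.151, 0.161 and 0.148 in hypoxic siARNT. The siARNT libraries were lower at both oxygen levels without overlap, by 0.02 and 0.015, and neither difference was called (edgeR adjusted p = 0.871 and 0.888). A 25 nt event of RPS24 shares 1 junction with it and went the same way (0.091 ± 0.00025 in normoxic siControl, 0.0793 ± 0.0011 in normoxic siARNT). The 3 nt event of RPS24 with the most reads was at 0.0514 ± 0.0011 in normoxic siControl and 0.0585 ± 0.0002 in hypoxic siControl, and in hypoxic siARNT at 0.0307, 0.0521 and 0.0173, where 1 junction was at 0 in replicate C. In RPS3 (22 nt), RPL26 (22 nt) and the 18 and 23 nt events of RPL41 the weaker junction held at most 0.311 of the stronger, and group means of PSI lay within 0.966 to 0.967, 0.801 to 0.819, 0.741 to 0.761 and 0.788 to 0.807.

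For the effect of ARNT knockdown and of hypoxia, inclusion and skip counts were tested over all 21477 events, and calls were made where the adjusted p was below 0.05. The main test, edgeR's quasi-likelihood test, called 0 of the 482 members in all 5 comparisons. It called 0.0186% of all events for hypoxia in siControl, 0% for hypoxia in siARNT, 0.014% for siARNT in normoxia, 0.00931% for siARNT in hypoxia and 0.0233% for the interaction, that is, how far the effect of hypoxia differs between the transfections. Members with an unadjusted p under 0.05 numbered 26, 29, 40, 47 and 22 in that order, which is 5.39, 6.02, 8.3, 9.75 and 4.56% of them, against 5.14, 4.16, 6.64, 6.26 and 3.89% of all events. In data simulated for hypoxia in siControl the same test recovered 8% of changes of 1 and 58% of changes of 2 in the log2 odds of inclusion, so a call of 0 leaves room for changes of moderate size. DESeq2 called 3, 2, 7, 10 and 3 members, against 0.247, 0.172, 0.47, 0.475 and 0.163% of all events. A quasi-binomial test, added after the data were seen because the main test called so few events in the whole table, called 1, 0, 8, 4 and 0 members, against 0.0652, 0.0326, 0.391, 0.214 and 0% of all events. The 8 and the 4 each included both ANO1 events, which share a junction. The 8 also included an event of APLP2 that rests on 1 junction, and events of EEF1A1 and RPS18 with 0 reads in 8 libraries. These are therefore not counts of independent exons. With limma on log2 ratios 0 members were called in each comparison, and in the simulated data it recovered 0% of the changes of either size. For changes of 1 and 2, DESeq2 recovered 5 and 44% there, and the quasi-binomial test 10 and 46%. Of their simulated calls 7.55 and 6.67% were false, against 2.94% for edgeR. The spread between simulated replicates was a fixed setting and was not fitted to these data.

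Knockdown of ARNT went with a lower share of the microexon of ANO1 in every library. The PSI of the 12 nt exon was 0.745, 0.71 and 0.71 in normoxic siControl and 0.532, 0.547 and 0.556 in normoxic siARNT. It was 0.689, 0.72 and 0.698 in hypoxic siControl and 0.532, 0.556 and 0.553 in hypoxic siARNT. The siARNT libraries lay below all siControl libraries at both oxygen levels, and the hypoxic means were near the normoxic ones (0.722 ± 0.02 and 0.702 ± 0.016 in siControl, 0.545 ± 0.012 and 0.547 ± 0.013 in siARNT). The log2 odds differed by -1.12 ± 0.201 (SE) in normoxia and -0.96 ± 0.201 in hypoxia in the main test, which gave adjusted p of 0.325 and 0.47 with edgeR. DESeq2 called both (adjusted p 8.24e-09 and 1.43e-05), as did the quasi-binomial test (0.000941 and 0.00608), while the 22 other settings of the main test or other tools gave 0.234 to 0.971 and 0.307 to 0.879. Of these 22 settings, 12 were the main test without 1 library, and limma was among the rest, so they are not independent checks. The ANO1 gene level rose by 0.33 ± 0.088 log2 in normoxia and 0.35 ± 0.088 in hypoxia with siARNT (edgeR adjusted p = 0.0225 and 0.0104).

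The microexon of PAPSS2 went the other way. Its PSI was 0.261, 0.261 and 0.257 in normoxic siControl against 0.487, 0.456 and 0.391 in normoxic siARNT, and 0.25, 0.255 and 0.234 against 0.375, 0.428 and 0.38 in hypoxia. All 6 siARNT libraries were above all 6 siControl libraries. The log2 odds differed by 1.19 ± 0.22 and 0.99 ± 0.22 (edgeR adjusted p = 0.325 and 0.484). DESeq2 called both differences (adjusted p 0.000278 and 0.0086), and so did the quasi-binomial test (0.004 and 0.0422), whereas the 22 other settings of the main test or other tools gave 0.234 to 0.971 and 0.345 to 0.879. Taking the weaker junction as inclusion ended the quasi-binomial call in hypoxia (0.0703). That call held in 3 of the 12 fits that leave out a library, with an adjusted p up to 0.275 (without hypoxic siControl A). The call in normoxia held in 11 of 12, with 0.0543 without normoxic siControl A. The gene level of PAPSS2 rose as well, by 0.45 ± 0.054 and 0.46 ± 0.054 log2 (edgeR adjusted p = 0.000245 and 6.71e-05).

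In DNM2 the PSI of the 12 nt exon was 0.588, 0.594 and 0.615 in normoxic siControl and 0.476, 0.456 and 0.387 in normoxic siARNT, then 0.545, 0.577 and 0.593 in hypoxic siControl and 0.442, 0.426 and 0.412 in hypoxic siARNT. The 6 siARNT libraries again lay apart from the 6 siControl libraries, with differences of -0.92 ± 0.217 and -0.84 ± 0.214 in log2 odds (edgeR adjusted p = 0.501 and 0.601). The calls of DESeq2 (adjusted p 0.0145 and 0.0101) and of the quasi-binomial test (0.0425 and 0.0422) stood against 0.393 to 0.971 and 0.412 to 0.879 in the 22 other settings of the main test or other tools. The quasi-binomial calls held in 3 of the 12 fits that leave out a library, with adjusted p up to 0.239 in normoxia (without normoxic siControl A) and 0.206 in hypoxia (without hypoxic siARNT B). With the weaker junction as inclusion it was 0.0482 in normoxia and 0.0703 in hypoxia. DNM1 has 9 of the 12 exon bases in common, and its PSI was 0.417 ± 0.037 and 0.459 ± 0.018 in normoxia and 0.39 ± 0.026 and 0.426 ± 0.036 in hypoxia, for siControl and siARNT. The DNM1 groups differed by 0.24 ± 0.219 and 0.22 ± 0.222 in log2 odds, on the other side of 0 from DNM2, and this difference between the genes was not tested.

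AP2M1, whose 6 nt exon had a mean of 761.9 reads, was at 0.588, 0.609 and 0.593 in normoxic siControl and 0.489, 0.52 and 0.488 in normoxic siARNT, without overlap. In hypoxia the groups were nearer, at 0.549, 0.585 and 0.545 against 0.517, 0.492 and 0.525. The log2 odds differed by -0.57 ± 0.213 in normoxia and -0.28 ± 0.213 in hypoxia (edgeR adjusted p = 0.718 and 0.806). DESeq2 and the quasi-binomial test called the difference in normoxia (adjusted p 0.0103 and 0.0248) and not that in hypoxia (0.601 and 0.832). The quasi-binomial call held in 7 of 12 fits without 1 library, with 0.152 when normoxic siControl A was left out, and the interaction was not called (edgeR adjusted p = 1).

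VPS29, MON2, ACOT9 and SENP6 also had their siARNT libraries below the siControl libraries at both oxygen levels. For VPS29 the means were 0.452 ± 0.027 and 0.357 ± 0.019 in normoxia, and 0.482 ± 0.055 and 0.346 ± 0.0041 in hypoxia. DESeq2 called the second (adjusted p = 0.0183, with 0.447 to 0.884 in the 22 other settings of the main test or other tools), and the quasi-binomial test missed the threshold (0.0542). For MON2 they were 0.74 ± 0.0093 and 0.577 ± 0.031, then 0.786 ± 0.048 and 0.641 ± 0.039. For ACOT9 they were 0.579 ± 0.022 and 0.437 ± 0.0077, then 0.519 ± 0.03 and 0.334 ± 0.064. The 21 nt exon of SENP6, a SUMO protease, had the smallest differences of the 4, with 0.625 ± 0.015 and 0.571 ± 0.027, then 0.594 ± 0.029 and 0.53 ± 0.038. MON2, ACOT9 and SENP6 were called by neither edgeR (adjusted p between 0.484 and 0.842) nor the quasi-binomial test. DESeq2 did not call them in normoxia and gave no adjusted p for them in hypoxia. They were picked after their values were seen, and the 21 nt event of UBE2B, with 35.2 reads per library, had a larger difference (group means of 0.479 and 0.672 in normoxia and 0.378 and 0.652 in hypoxia, for siControl and siARNT).

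**Figure D4:**
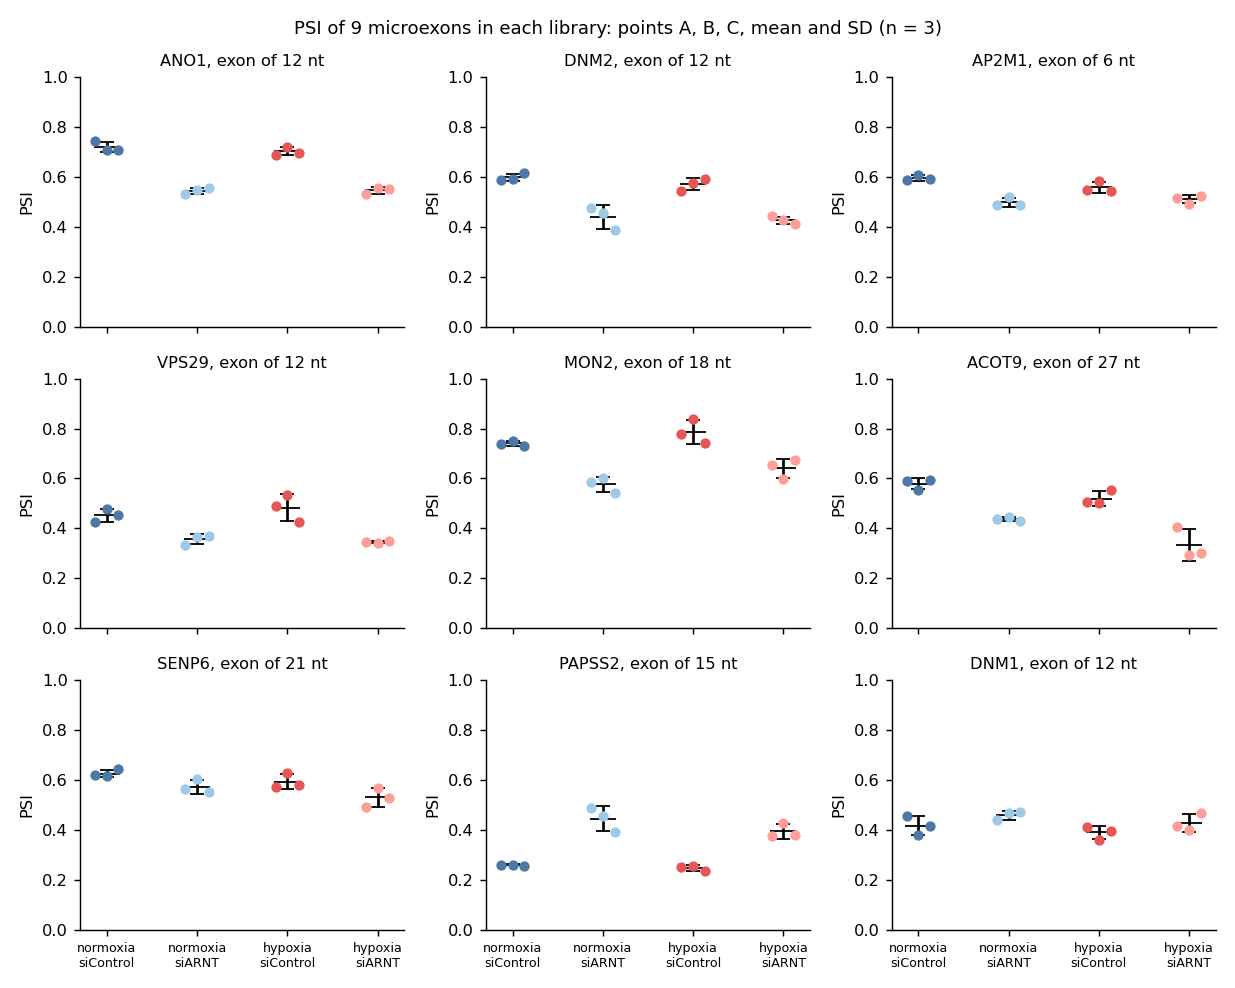
PSI (vertical axis, 0 to 1) of 9 microexons in the 4 groups (horizontal axis); points are libraries A, B and C, and black bars are the mean and SD (n = 3). In ANO1, DNM2, VPS29, MON2, ACOT9 and SENP6 both siARNT groups lie below their siControl group without overlap, AP2M1 does so in normoxia and, by a smaller step, in hypoxia, PAPSS2 lies above, and the DNM1 groups overlap at both oxygen levels.

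Across all members, groups that did not overlap and differed by at least 0.05 in PSI, with at least 5 reads in every library, were counted in each direction. With siARNT in normoxia 26 members (5.39%) were lower and 11 (2.28%) higher, against 3.32 and 1.95% of all events. With siARNT in hypoxia 21 (4.36%) were lower and 12 (2.49%) higher, against 2.95 and 1.73%. Of the lower members 8 were found at both oxygen levels, which is 30.8% of the normoxic and 38.1% of the hypoxic list, against 24.6 and 27.6% for all events. These 8 were ANO1 (12 and 9 nt), DNM2, VPS29, MON2, ACOT9, SENP6 and ARHGEF10L. The last, a 15 nt exon, had only 20 reads per library, the lowest mean of all members, and PSI values of 0.64 ± 0.014, 0.483 ± 0.095, 0.616 ± 0.064 and 0.328 ± 0.11 in the order normoxic siControl, normoxic siARNT, hypoxic siControl and hypoxic siARNT. The 2 members higher at both levels were PAPSS2 and a 17 nt event of NR4A2 with unbalanced junctions, which is 18.2% of the normoxic and 16.7% of the hypoxic list, against 13.4 and 15.1% for all events.

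Among the 91 events with balanced junctions and middle PSI, siARNT gave a lower mean in 65 (71.4%) in normoxia and in 50 (54.9%) in hypoxia, where 55.9 and 54.5% of the 2170 longer exons chosen alike were lower. The median difference was -0.029 in normoxia and -0.007 in hypoxia, beside a median SD within groups of 0.0413. Leaving out 1 library at a time gave 61 to 67 lower events in normoxia and 46 to 54 in hypoxia. These counts are over exons of the same libraries and carry no test.

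**Figure D5:**
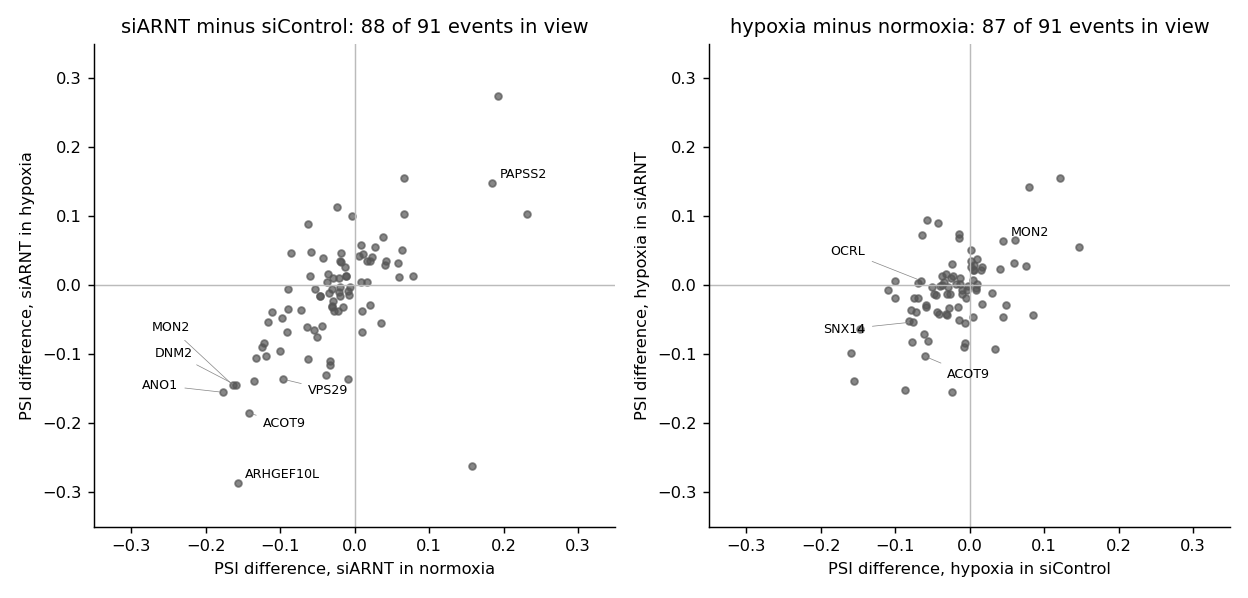
Each point is 1 of the 91 microexon events with balanced junctions and middle PSI. Left, the siARNT minus siControl difference in mean PSI in normoxia (horizontal axis) and hypoxia (vertical axis), which use different libraries; ANO1, DNM2, MON2, ACOT9 and ARHGEF10L lie at the lower left and PAPSS2 at the upper right. Right, the hypoxia minus normoxia difference in siControl and siARNT; 2 events on the left and 3 on the right lie beyond 0.35 and are not drawn, nor is that of EEF1A1, which has no PSI in hypoxic siARNT.

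For hypoxia in siControl the counts were near those of all events. Without overlap, 10 members (2.07%) were lower and 9 (1.87%) higher by at least 0.05, close to the 2.35 and 1.84% of all events. In siARNT 20 (4.15%) were lower and 11 (2.28%) higher, against 2.08 and 1.42%. Of the 91 balanced events, 7 (7.69%) were lower and 0 higher in siControl, against 7.97 and 4.93% of the 2170 longer exons. By sign alone 61 of the 91 (67%) had a lower mean in hypoxia in siControl and 52 (57.1%) in siARNT, against 56.8 and 56% of the longer exons. The 7 without overlap were SNX14, OCRL, PPFIBP1, RAPGEF2, KIF3A, MTMR1 and RPSA. SNX14, a sorting nexin, had 0.25, 0.287 and 0.288 in normoxic siControl against 0.191, 0.23 and 0.173 in hypoxic siControl for its 27 nt exon, and 0.264 ± 0.0044 against 0.211 ± 0.028 in siARNT. It was lower in hypoxia without overlap in both transfections (log2 odds -0.62 ± 0.23 and -0.43 ± 0.231), and neither was called (edgeR adjusted p = 0.925 and 0.938). In OCRL, a phosphoinositide phosphatase, the 24 nt exon was at 0.259 ± 0.012 and 0.193 ± 0.049 in siControl, and at 0.199 ± 0.018 and 0.206 ± 0.027 in siARNT. The hypoxia comparison in siControl and the siARNT comparison in normoxia share the 3 normoxic siControl libraries, and OCRL, KIF3A and RPSA were on the lower side in both.

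Of the exons described for siARNT, the PSI with hypoxia in siControl differed by -0.019 for ANO1, -0.014 for PAPSS2, -0.027 for DNM2 and 0.03 for VPS29. Their log2 odds differed by -0.14 ± 0.202, -0.11 ± 0.224, -0.17 ± 0.215 and 0.18 ± 0.226. For AP2M1, MON2, ACOT9 and SENP6 the PSI differed by -0.037, 0.045, -0.06 and -0.032. In siARNT ACOT9 was lower in hypoxia by -0.103, without overlap. These exons were chosen by their siARNT values, so smaller differences with hypoxia are no result about them. The DNM2 gene itself rose by 1.04 ± 0.205 log2 in hypoxia in siControl (edgeR adjusted p = 0.00343), without a call for its exon. The 28 nt event of APLP2, which rests on 1 junction (580 to 1706 reads against 0 to 28), was 1 of the 3 DESeq2 calls for hypoxia in siControl, as was that of B2M. The PSI of the APLP2 event was 0.269 ± 0.0035 in normoxic siControl and 0.191 ± 0.0098 in hypoxic siControl (DESeq2 adjusted p 0.0165). For that comparison the edgeR value was 0.925 and the quasi-binomial value 0.0737. In siARNT the PSI was 0.198 ± 0.013 in normoxia and 0.174 ± 0.024 in hypoxia, so normoxic siControl lay above every other group. The quasi-binomial test called this event for siARNT in normoxia.

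Several of the largest differences between group means belonged to events with few or no reads in some libraries. The 16 nt event of EEF1A1 had 0 reads in 8 of 12 libraries, and its PSI of 0 or 1 rested on 4 libraries. The 29 nt event of RPS18 also had 0 reads in 8 libraries, and the 23 nt event of EIF4A1 in 5. In an 18 nt event of RPS24 the PSI was at most 0.0104 in 10 libraries and 1 in hypoxic siARNT replicates A and C, where the event held fewer than 5 reads. The quasi-binomial calls of RPS18 (hypoxia in siControl, siARNT in normoxia) and EEF1A1 (siARNT in normoxia) rested on such libraries, and without events in which any library has under 5 reads 6 members were called in siARNT in normoxia and 0 in hypoxia in siControl. In the 13 nt event of RPSA, the skip junction was at 0 in all 3 normoxic siControl libraries. It was at 118 to 244 in the 6 libraries of normoxic siARNT and hypoxic siControl. In hypoxic siARNT it held 0, 0 and 73 reads, so replicates of that group were on both sides. An inclusion junction of this event held 0 or 1 reads in some replicates of every group and 96 to 203 in others. DESeq2 called the event for siARNT in normoxia (adjusted p = 0.000725) and for the interaction (1.88e-06), where edgeR did not.

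At the read minimum, ARHGEF10L lay just inside with a mean of 20 reads, and a 13 nt event of SEC14L1 with 19.42 lay just outside, with group means of PSI from 0.813 to 0.911. The members nearest a mean PSI of 0.5 were DNM2, the 9 nt event of ANO1, ARHGEF10L, a 20 nt event of TAF1D (32.92 reads per library, group means 0.435 to 0.598) and a 24 nt exon of PHACTR4 (25.33 reads). In PHACTR4, which encodes a phosphatase regulator, the group means were 0.618 ± 0.09, 0.498 ± 0.099, 0.463 ± 0.088 and 0.36 ± 0.086 in the order used above, and at that depth no difference was called.

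A list of 40 genes, known regulators of short exons or of 3′ splice site choice, was read from the gene counts. Of these, 34 had enough counts to be tested. SRRM4, the neuronal microexon factor, had 0 counts in all 12 libraries. Its relative SRRM3 was low, at 1.93 ± 0.377 CPM in normoxic siControl and 5.37 ± 1.59 in normoxic siARNT, a rise of 1.48 ± 0.307 log2 (edgeR adjusted p = 0.00714). In hypoxia it was at 2.46 ± 0.946 and 4.03 ± 1.01 CPM (0.109). With siARNT in normoxia 6 of the 34 rose and 6 fell (35.3% called, against 20.2% of all genes, 9.42% up and 10.8% down), and in hypoxia 5 rose and 5 fell (29.4% against 29.1%, 14.4% up and 14.7% down). The epithelial splicing factor ESRP1 fell at both oxygen levels, from 20.5 ± 1.58 to 14.2 ± 1.12 CPM and from 23 ± 0.907 to 12.2 ± 1.5 CPM (log2 -0.53 ± 0.101 and -0.91 ± 0.102, edgeR adjusted p = 0.00413 and 4.5e-05). MBNL1 and CPEB4 fell at both levels too, and ELAVL1, SF1, SRRM1, HNRNPA1 and U2AF1 rose at both. The list's median was 0.04 log2 in normoxia and -0.01 in hypoxia, beside 0.01 and 0.02 for all genes.

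In hypoxia with siControl 4 of the 34 rose and 4 fell (23.5% called, against 25.3% of all genes, 10.4% up and 14.9% down). RBM5 rose by 0.49 ± 0.051 log2 (adjusted p 4.36e-05), RBFOX2 by 0.3 ± 0.055 (0.00185), SRSF11 by 0.33 ± 0.088 (0.0174) and QKI by 0.29 ± 0.094 (0.0418), all by edgeR. ELAVL1, HNRNPC, SFPQ and TRA2B fell, by 0.19 to 0.27 on the log2 scale. In hypoxia with siARNT 2 rose and 0 fell (5.88% called, against 4.09% of all genes, 2.21% up and 1.89% down), namely RBM5 and RBFOX2, with 5 of the 34 at an unadjusted p under 0.05 in edgeR. PTBP1, a repressor of microexons outside neurons, was at 104 to 203 CPM over the 12 libraries and was called in no comparison. For the interaction 1 of the 34 was called, in the falling direction, against 4.69% of all genes (2.19% down), with 5 at an unadjusted p under 0.05. Whether any of these levels bears on the exons was not tested.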

How the data were processed

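Per the submitters' processing notes, reads were trimmed with Trimmomatic and aligned with STAR 2.4.2a, and GRCh38.p10 is named. The deposited event table gives counts of reads on 3 junctions per exon skip, and PSI as a fraction; the splicing tool is not given in the sources used here. Recomputed PSI matched the deposited values within 0.0051 in 100%. The deposited gene files hold counts per gene, and 22.71 to 25.2% of reads fell on lines that name no gene and were left out.

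Members, gene lists and named genes were chosen with earlier results of these data known. The naming rule took the 8 members with most reads, the 5 shortest, the 5 nearest a PSI of 0.5, the 4 with the largest uncalled differences and those at the read minimum. Other names were chosen after their values were seen, and some results are not reported here. Inclusion (rounded) and skip counts of all 12 libraries were fitted with edgeR 4.0.16 (R 4.3.3; robust quasi-likelihood, 1 term per library and 1 inclusion term per group), with Benjamini-Hochberg adjustment over 21477 events. DESeq2 1.42.0 and limma 3.58.1 were alternatives. Genes (16999) were fitted with edgeR, TMM and filterByExpr. SE is the estimate over the root of F. The tests were run on simulated data first: for hypoxia in siControl over 16999 genes, 72% of 2-fold changes were recovered. Alternatives were read minimums, junction choices, replicate blocks and leaving out libraries.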

Additional observations from a re-analysis of the deposited data

Results flagged for a closer look

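The difference between the transfections was tested by the interaction, and 1 gene of the list of 40 passed it. RBM5, a splicing factor of the early spliceosome, rose with hypoxia by 0.49 ± 0.051 log2 in siControl (57.5 ± 1.47 to 80.8 ± 1.89 CPM, SD, n = 3) and by 0.21 ± 0.051 in siARNT (59 ± 2.41 to 68.2 ± 0.636 CPM). The difference of these changes was -0.28 ± 0.072 (edgeR adjusted p = 0.0465, where 4.69% of all genes were called), and it was not called with the size factors of DESeq2 in edgeR or without the filter on low counts. The count of 1 called gene held in 2 of the 12 fits that leave out a library, and in the other fits it was 0. Groups of 3 were not tested for a library that stands apart.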

How the results depend on the processing

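The main test called 0 members in each comparison. For hypoxia in siControl DESeq2 called 3, the quasi-binomial test 1 and a fit of only the compared samples 1; for hypoxia in siARNT DESeq2 called 2. For siARNT in normoxia DESeq2 called 7 and the quasi-binomial test 8, for siARNT in hypoxia 10 and 4, and for the interaction DESeq2 called 3. Without 1 library the main test called 0 to 1 members. The quasi-binomial test then called 0 to 3, 0 to 2, 4 to 9, 1 to 5 and 0 to 2 in the same order of comparisons. With the weaker junction it called 2 for hypoxia in siControl and 1 for siARNT in hypoxia, and without events in which a library has under 5 reads 0 for hypoxia in siControl. Regulator genes called without 1 library numbered 4 to 13, 0 to 2, 5 to 13, 6 to 15 and 0 to 1. For hypoxia in siARNT 1 was called with DESeq2's size factors in edgeR and 0 without the filter, and for the interaction 2 by DESeq2, 0 with its size factors and 0 without the filter. The median PSI of 0.818 was 0.864 at a minimum of 50 reads, 0.786 without one, 0.61 and 0.667 from the left or right junction alone, 0.342 from the weaker junction and 0.79 with each exon counted once. The cause of these shifts was not tested.

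Deviations of the junction log ratios correlated at -0.03 to 0.053 between libraries with the same letter, and at -0.044 to 0.056 between different letters. These values cover the junction ratios of all tested events together, and they do not settle whether the letters A to C pair the libraries. At the gene level KRT19, PTBP1 and PUF60, for example, were highest in replicate B in every group but hypoxic siARNT, where C was highest. With the letter as a replicate block 1 member was called for the interaction and 0 in the other comparisons, and 1 regulator gene for hypoxia in siARNT. With the transfected well as the block 0 members were called for hypoxia and for the interaction.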

Other observations

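The values of some other balanced microexons with middle PSI, chosen after they were seen, are given here, and the main test called none of them. The 12 nt exon of TEAD1, a transcription factor of the Hippo pathway, had group means of PSI of 0.29 and 0.199 in normoxia and 0.296 and 0.229 in hypoxia, for siControl and siARNT. In GPBP1, a GC-rich promoter binding protein, the 21 nt exon was at 0.181 and 0.137, then 0.189 and 0.13. The 30 nt exon of ACLY, the enzyme that makes cytosolic acetyl-CoA, was at 0.94 and 0.82, then 0.902 and 0.819.

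The 27 nt exon of NCOR1, a corepressor of nuclear receptors, was at 0.469 and 0.447 in normoxia and 0.405 and 0.519 in hypoxia. Its siARNT libraries lay above the siControl libraries without overlap in hypoxia alone. The 24 nt exon of CSNK1G3, a casein kinase, was at 0.218 and 0.257, then 0.173 and 0.243.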
